A study of Macaca mulatta with 12 samples.

Results

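Chromatin modifiers and remodelers are the proteins that place, remove or read chemical marks on histones and DNA and that move nucleosomes. The 80 genes described here were chosen by a rule on names that used no values, but earlier results of these data were known. The rule took every gene whose array row carries a single symbol of a given form. The symbol begins with SMARC, CHD and a digit, KDM, KMT, HDAC, KAT and a digit, ARID, SETD, DNMT or TET and a digit. The symbols EZH1, EZH2, UHRF1 and EED were also taken. The chosen genes are 80 of the 8785 genes that had a row, and they came from 82 rows. TET2 and KMT2A had 2 rows each, and the row with the higher mean over the 12 arrays was used. UHRF1 and DNMT3B are among the genes with no row of their own in the table, and they were not analysed here.

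The tissue was post-mortem superior frontal gyrus, a part of the prefrontal cortex, from 12 male rhesus macaques that had died suddenly, with 1 array for each animal. The 6 fetal animals were at 72, 57, 53, 42, 35 and 30 days before birth and the 6 postnatal animals at 1, 24, 182, 353, 479 and 831 days of age. No animal was treated, and the labels name no genotype. The arrays (Affymetrix Human Gene 1.0 ST) carry probes made for human transcripts, so a mismatch between a macaque transcript and a human probe can lower a signal. For that reason no row's level is compared with another row's, and only differences between animals are read. The values are on a log scale that is read here as log2, and every fold change rests on that reading. The array medians lay between 3.98 and 4.38, and the number of arrays limits the precision.

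As background, remodelers such as the BAF, ISWI and CHD complexes use ATP to slide or evict nucleosomes, and their subunits are exchanged for relatives when neural progenitors become neurons. Acetyltransferases and deacetylases set histone acetylation, which accompanies active genes. Methyltransferases and demethylases set histone methylation, where H3K4 methylation marks promoters and enhancers in use and Polycomb complexes place H3K27 methylation on silenced genes. DNA methyltransferases and TET enzymes write and oxidise cytosine methylation, and oxidised cytosine accumulates in brain after birth.

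The first question was how the 6 postnatal animals differed from the 6 fetal ones. Of the 80 genes, 19 were lower and 10 higher after birth, and 51 did not pass the test (limma on all 9630 rows, Benjamini-Hochberg adjusted p under 0.05). Over all 9630 rows 13.2% were called lower and 20% higher, against 23.8% and 12.5% of the chromatin genes. Calls in either direction covered 36.3% of the chromatin genes and 33.2% of all rows, so the total lay near the background and the balance of directions differed from it. No test compared these shares. The median difference was -0.05 log2 units over the 80 genes and 0.07 over all rows. The changes were moderate: falls lay between 1.26-fold and 1.93-fold, rises between 1.23-fold and 2.15-fold, and only KAT2B and KDM7A, both higher, changed by at least 1 log2 unit, as 4.59% of all rows did upward and 2.29% downward.

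Lower calls outnumbered higher ones under each scaling between arrays, by different margins. With each array centred on its median, 7 genes were called higher and 28 lower, against 17.6% and 21.4% of all rows. After quantile normalization the counts were 8 and 27, against 19.3% and 20.8%. The share of higher calls among the called chromatin genes was 34.5% as deposited, 20% after centring and 22.9% after quantile normalization. Among all called rows that share was 60.3%, 45.2% and 48.1%, so it fell with both scalings there too. Of the 29 genes called on the deposited values, 26 were also called after centring and 27 after quantile normalization.

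**Figure D1:**
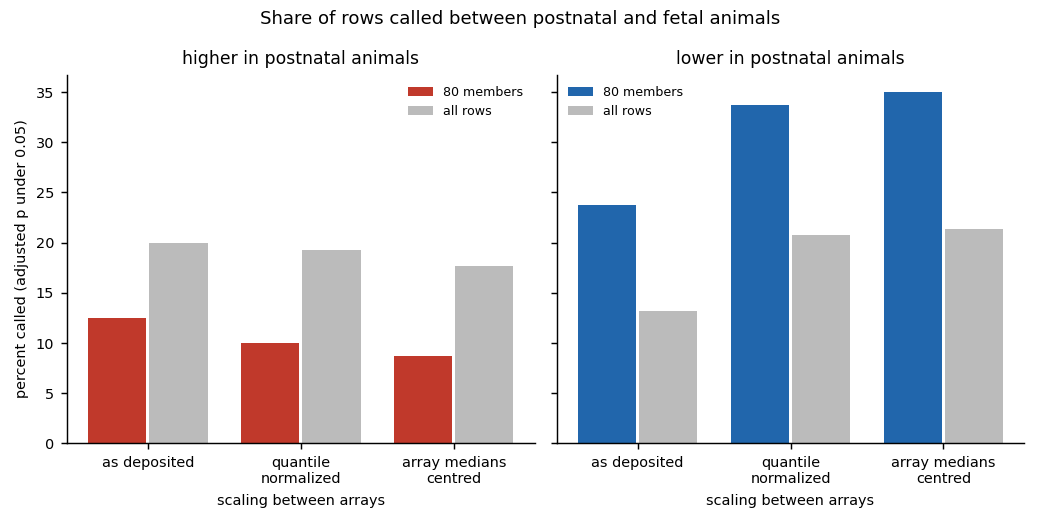
Percent of the 80 chromatin genes (coloured bars) and of all 9630 rows (grey bars) called higher (left) or lower (right) in postnatal animals, under 3 scalings between arrays. The chromatin genes lie below the rows on the left and above them on the right under each scaling, at 12.5% against 20% and 23.8% against 13.2% on the deposited values.

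Bulk tissue was measured, so fewer cells of a type and less RNA per cell cannot be told apart. Between the same groups all 7 measured markers of immature neurons were lower, and the mean log2 level of that list ranged from 6.68 to 7.55 in fetal and from 4.61 to 6.17 in postnatal animals. All 7 oligodendrocyte and myelin markers were higher (list mean 1.81 to 2.67 against 3.31 to 5.56), and 5 of them, MBP, MAG, ERMN, OPALIN and UGT8, lay under the 20th percentile of the array in all 6 fetal animals. The counts were 9 of 10 higher for mature neurons and synapses (5.29 to 6.05 against 6.06 to 6.79), 6 of 7 for astrocytes (5.53 to 6.54 against 6.80 to 7.42), 4 of 5 for microglia (3.12 to 3.92 against 3.96 to 4.50) and 1 of 6 for blood vessels (3.36 to 4.13 against 3.86 to 4.18). Of 8 cell cycle genes 4 were lower (2.65 to 3.37 against 2.23 to 2.95), and MKI67, TOP2A and TYMS, of which TOP2A and TYMS are among the 4, lay under the 20th percentile in all 12 animals. With the floor at that percentile, only MCM6 of the 8 was called lower and the list's median difference went from -0.53 to 0.06. TOP2A, TYMS and CCNA2 also lost their calls in 7, 6 and 5 of the 12 fits that left out 1 animal (adjusted p up to 0.0733, 0.0725 and 0.0732). Of 7 progenitor and radial glia markers 3 were lower and 2 higher (4.14 to 4.52 against 3.93 to 4.18). With the floor, HOPX of that list, ERMN and the microglia marker GPR34 lost their higher calls (limma adjusted p = 0.465, 0.0835 and 0.465). That left 6 of 7 oligodendrocyte and 3 of 5 microglia markers higher, and the mature neuron and astrocyte counts stayed. TYROBP, another microglia marker, lost its call in 5 of the 12 fits that left out 1 animal (up to 0.0688). ALAS2, the measured blood marker, lay under the 20th percentile in all 12 animals. Neuronal markers such as SNAP25 and CAMK2A lay above that percentile in every animal. The part of these cell type changes in the results below was not tested.

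**Figure D2:**
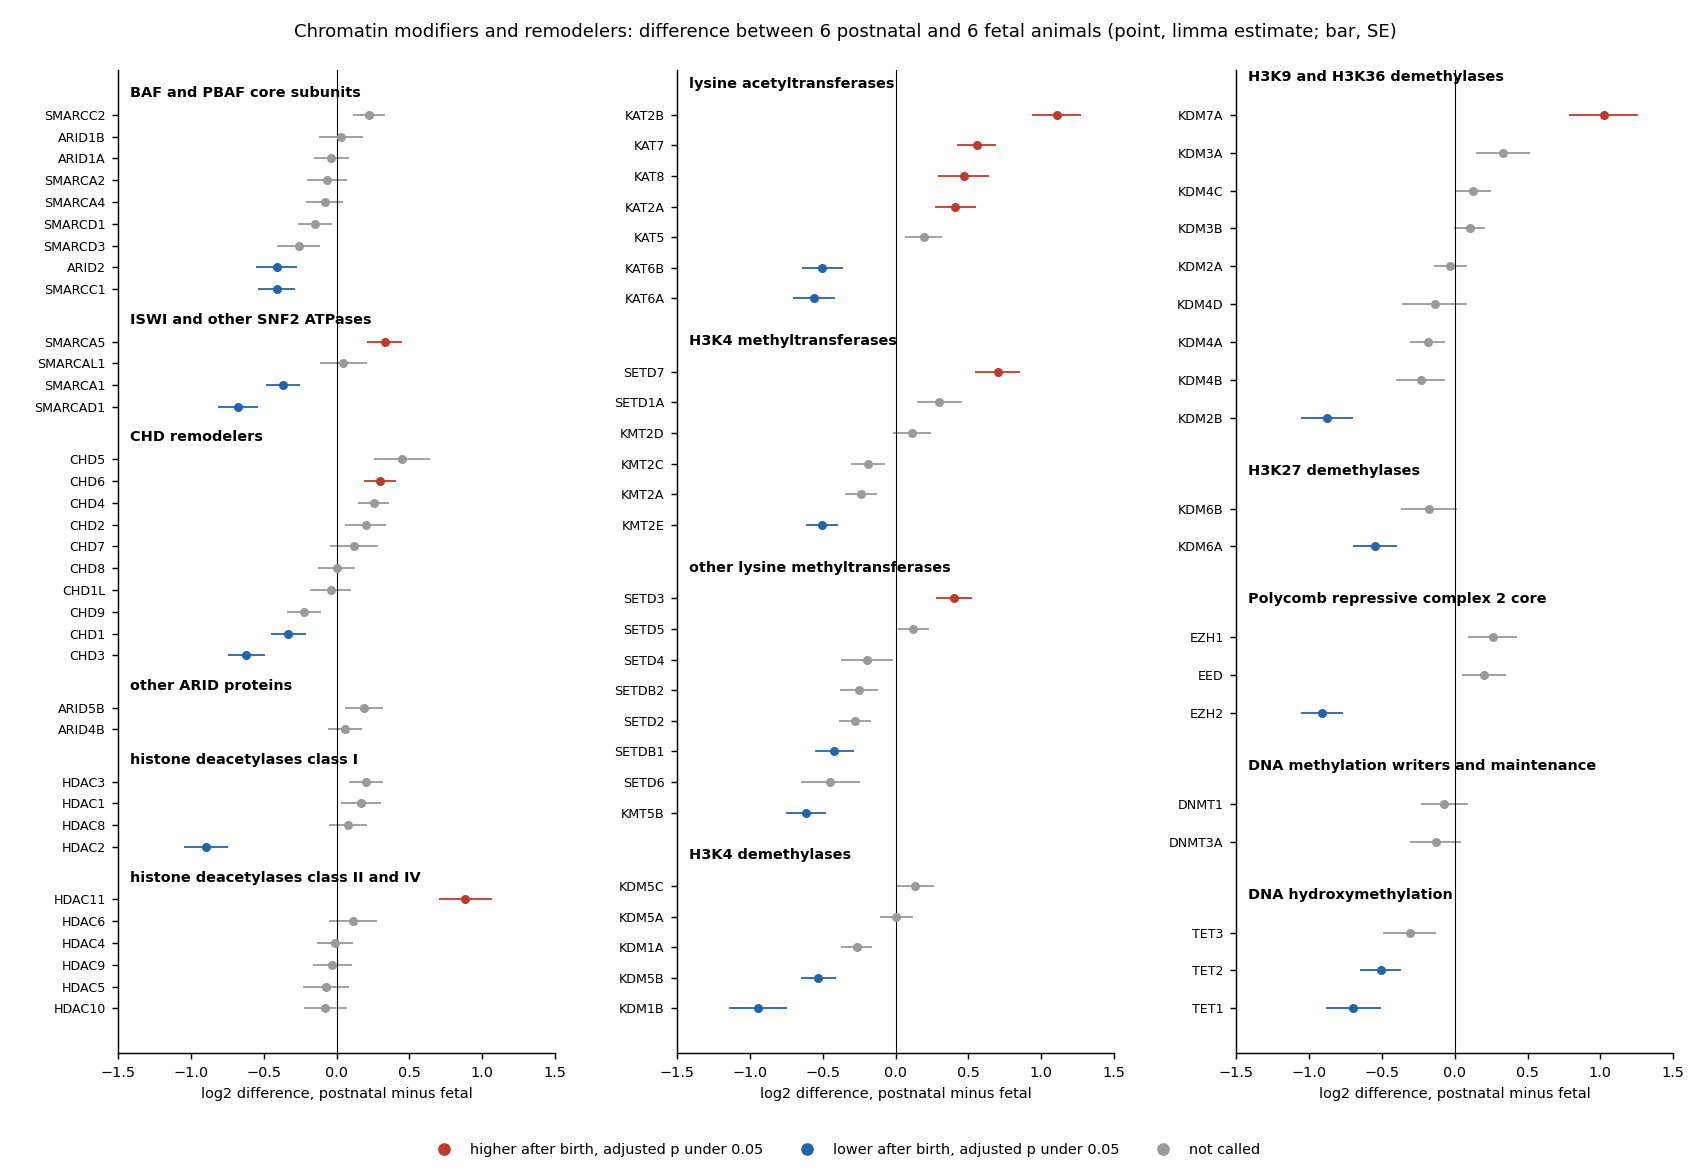
Log2 difference between postnatal and fetal animals for each of the 80 genes, grouped by role, as the limma estimate (point) with its standard error (bar). Blue marks the 19 genes called lower, red the 10 called higher and grey the 51 not called, with KDM1B at the low end (-0.95) and KAT2B at the high end (1.10).

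The catalytic genes of Polycomb repressive complex 2, which methylates H3K27, differed in how they changed. EZH2, the catalytic subunit that prevails in dividing cells, lay between 2.87 and 3.60 in fetal animals (median 3.27) and between 2.12 and 2.63 in postnatal animals (median 2.34, log2). The fetal and postnatal values did not overlap, a separation seen in 12 of the 80 genes (9 lower, 3 higher) and in 13.5% of all rows (5.30% lower, 8.19% higher). EZH2 fell by 0.91 ± 0.14 log2 units (± SE, 1.88-fold, limma adjusted p = 0.000224), the smallest adjusted p among the genes that fell. All 6 of its postnatal values were dim, under the 20th percentile of the array, and when values under that percentile were raised to it the difference was -0.28 and was not called (adjusted p = 0.125). In the same animals 4 of 8 cell cycle genes were lower, and 1 of 8 with the floor, and their part in the result was not tested.

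EZH1, the other catalytic subunit, which prevails in cells that have left the cycle, differed by 0.26 ± 0.17 (adjusted p = 0.250), and EED, a scaffold subunit that EZH1 and EZH2 both need, by 0.20 ± 0.15 (adjusted p = 0.321). The within-animal difference of EZH1 and EZH2, set to a fetal mean of 0, lay between -0.38 and 0.48 in fetal and between 0.62 and 1.80 in postnatal animals. That difference changed by 1.17 log2 units toward EZH1 (exact permutation of the 12 animals, two-sided, p = 0.00216, the smallest that 6 against 6 allows, adjusted p = 0.00722 over the 20 pairs tested). With the 20th percentile as a floor it changed by 0.54 and was not called (adjusted p = 0.0606).

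H3K27 demethylases reverse the Polycomb mark. KDM6A fell by 0.55 ± 0.15 (1.46-fold, adjusted p = 0.0106), from 4.73 to 5.23 in fetal animals (median 5.15) to 3.98 to 4.88 in postnatal animals (median 4.55). The fetus of 30 days before birth had the lowest fetal value of KDM6A and the animal of 1 day the highest postnatal value, and the groups overlapped there. KDM6B differed by -0.18 ± 0.19 (adjusted p = 0.510), and all 12 of its values were under the 20th percentile of the array.

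Of the 3 TET genes, which encode the enzymes that oxidise methylated cytosine, 2 fell and none rose. TET1 was at 3.08 to 3.84 in fetal animals (median 3.63) and 2.22 to 3.30 in postnatal animals (median 2.92). It fell by 0.70 ± 0.19 (1.62-fold, limma adjusted p = 0.0106), and by 0.43 with the floor, under which 4 of its 6 postnatal values lay (adjusted p = 0.0190). TET2 was at 5.53 to 6.09 (median 5.87) and 5.05 to 5.80 (median 5.30), and it fell by 0.51 ± 0.14 (1.42-fold, adjusted p = 0.0111). TET3 differed by -0.31 ± 0.18 (adjusted p = 0.207). The DNA methyltransferases did not pass the test, with DNMT1, the maintenance enzyme, at -0.07 ± 0.16 (adjusted p = 0.761) and DNMT3A, a de novo enzyme active in neurons after birth, at -0.13 ± 0.17 (adjusted p = 0.581). A missed threshold does not show that their levels were equal, since differences of the size of these standard errors could not be told from 0.

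Acetyltransferases held the largest rise among the 80 genes. Of 7 measured, 4 rose and 2 fell. KAT2B, also called PCAF, a coactivator that acetylates histone H3, lay between 4.31 and 5.02 in fetal animals (median 4.56) and between 5.36 and 6.11 in postnatal animals (median 5.64). It rose by 1.10 ± 0.17 (2.15-fold, limma adjusted p = 0.000184), and every postnatal animal lay above every fetal one. The fetus of 30 days before birth had the highest fetal value, at 5.02, the animal of 1 day the lowest postnatal value, at 5.36, and the animals of 479 and 831 days were highest.

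KAT7, the H3 and H4 acetyltransferase HBO1, was at 3.31 to 3.90 (median 3.54) in fetal and 3.95 to 4.35 (median 4.10) in postnatal animals, with no overlap. It rose by 0.56 ± 0.13 (1.47-fold, adjusted p = 0.00461). KAT8, which acetylates H4K16, rose by 0.47 ± 0.17 (adjusted p = 0.0480), and KAT2A, the close relative of KAT2B, by 0.41 ± 0.14 (adjusted p = 0.0360). Both were near the threshold. KAT8 lost its call in 9 of the 12 fits that left out 1 animal, all but those without the fetus of 42 or 57 days before birth or the animal of 831 days (adjusted p up to 0.113). It also lost its call with juvenile postnatal animals (182 days or older) only (limma adjusted p = 0.139). The same held without the animals of 30 days before birth and 1 day. KAT2A lost its call in 8 of the 12 fits that left out 1 animal, all but those without the fetus of 30 or 35 days before birth or the animal of 1 or 353 days (up to 0.0860), and after centring (0.0928) and quantile normalization (0.0647).

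The paralogs KAT6A and KAT6B, the MOZ and MORF proteins of the MYST family, went the other way. KAT6A fell from 5.39 to 6.03 (median 5.82) to 4.94 to 5.41 (median 5.33), by 0.56 ± 0.14 (1.48-fold, adjusted p = 0.00694). KAT6B fell from 5.61 to 6.16 (median 6.05) to 5.14 to 5.87 (median 5.42), by 0.50 ± 0.14 (1.42-fold, adjusted p = 0.0118). In both genes the fetus of 30 days before birth was lowest among fetal animals and the animal of 1 day highest among postnatal ones. KAT5, the TIP60 acetyltransferase, differed by 0.19 ± 0.13 (adjusted p = 0.266).

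Among the 4 class I deacetylases, which remove acetyl groups in the nucleus, HDAC2 alone was called. Its values were 5.76 to 6.13 in fetal animals (median 6.10) and 4.64 to 5.64 in postnatal animals (median 5.11), with no overlap. HDAC2 fell by 0.90 ± 0.15 (1.86-fold, adjusted p = 0.000411). The animal of 1 day was highest among postnatal animals and that of 831 days lowest. HDAC1, the partner of HDAC2 in the NuRD, Sin3 and CoREST complexes, differed by 0.17 ± 0.14 (adjusted p = 0.376), HDAC3 by 0.20 ± 0.11 (0.188) and HDAC8 by 0.08 ± 0.13 (0.673). The within-animal difference of HDAC1 and HDAC2 changed by 1.06 log2 units toward HDAC1 (exact permutation p = 0.00433, adjusted p = 0.0124).

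In class II and IV, HDAC11, the sole class IV deacetylase, rose by 0.88 ± 0.18 (1.85-fold, adjusted p = 0.00171). It lay between 2.34 and 3.33 (median 2.91) in fetal and between 3.20 and 4.33 (median 3.80) in postnatal animals, and the groups overlapped at the animal of 1 day, which lay below the fetus of 57 days before birth. HDAC4, HDAC5, HDAC6, HDAC9 and HDAC10 were not called and lay between -0.08 and 0.11 log2 units.

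H3K4 demethylases take methyl groups from active promoters and enhancers. Of 5 measured, 2 fell and none rose. KDM1B, also called LSD2, had the largest fall of the 80 genes, by 0.95 ± 0.20 (1.93-fold, adjusted p = 0.00201). It was at 3.81 to 5.11 in fetal animals (median 4.79) and 3.22 to 4.02 in postnatal animals (median 3.69), and the groups overlapped because the fetus of 30 days before birth lay at 3.81. KDM5B was at 6.26 to 6.60 (median 6.55) and 5.70 to 6.17 (median 5.99) with no overlap, and it fell by 0.53 ± 0.12 (1.45-fold, adjusted p = 0.00315). KDM5C, its X-linked relative, differed by 0.13 ± 0.13 (adjusted p = 0.471), and the within-animal difference of KDM5B and KDM5C changed by -0.66 (exact permutation p = 0.00216, adjusted p = 0.00722). KDM1A, or LSD1, differed by -0.27 ± 0.11 (adjusted p = 0.0647), just outside the threshold, and was called after centring (adjusted p = 0.0162), after quantile normalization (0.0250) and without the animal of 1 day. KDM5A had an adjusted p of 0.978.

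In the group of H3K9 and H3K36 demethylases, 1 of 9 fell and 1 rose. KDM2B, which binds unmethylated CpG islands and brings a Polycomb repressive complex 1 variant to them, lay between 3.76 and 4.55 in fetal animals (median 4.21) and between 2.67 and 3.67 in postnatal animals (median 3.45). It fell by 0.88 ± 0.18 (1.84-fold, adjusted p = 0.00165) with no overlap. KDM7A, a demethylase of H3K9 and H3K27, rose by 1.02 ± 0.24 (2.03-fold, adjusted p = 0.00361), from 2.73 to 4.27 (median 3.49) to 4.02 to 4.91 (median 4.51). The fetus of 30 days before birth had the highest fetal value of KDM7A. KDM2A, KDM3A, KDM3B, KDM4A, KDM4B, KDM4C and KDM4D were not called, at -0.23 to 0.33 log2 units.

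Genes listed here as H3K4 methyltransferases moved in both directions, with 1 of 6 higher and 1 lower. Enzyme activity was not measured, and the listing does not show that each of them, KMT2E included, methylates H3K4. SETD7, which adds single methyl groups to H3K4 and to other proteins, was at 4.53 to 5.01 (median 4.89) in fetal and 5.22 to 6.14 (median 5.47) in postnatal animals. It rose by 0.70 ± 0.15 (1.63-fold, adjusted p = 0.00256) with no overlap, and the animal of 831 days was highest. KMT2E, or MLL5, was at 6.50 to 6.89 (median 6.62) and 6.01 to 6.25 (median 6.15) with no overlap, and it fell by 0.50 ± 0.11 (1.42-fold, adjusted p = 0.00254). The large MLL-type enzymes KMT2A, KMT2C and KMT2D and the related SETD1A were not called, with KMT2A at -0.24 ± 0.11 (adjusted p = 0.103), KMT2C at -0.19 ± 0.11 (0.216), KMT2D at 0.11 ± 0.13 (0.525) and SETD1A at 0.30 ± 0.15 (0.149).

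Of 8 other lysine methyltransferases, 2 fell and 1 rose. KMT5B, which methylates H4K20, was at 6.02 to 6.62 (median 6.43) in fetal and 5.36 to 5.99 (median 5.87) in postnatal animals with no overlap, and it fell by 0.61 ± 0.14 (1.53-fold, adjusted p = 0.00311). SETDB1, an H3K9 methyltransferase that silences repeats, fell by 0.42 ± 0.13 (1.34-fold, adjusted p = 0.0236). Its call was lost without the fetus of 35 days before birth or the animal of 182 days (adjusted p up to 0.0585). SETD3, whose best known substrate is actin and not a histone, rose by 0.40 ± 0.12 (1.32-fold, adjusted p = 0.0208), a call lost without the animal of 479 days (0.0514). The SETD3 call was also lost with juvenile postnatal animals only (limma adjusted p = 0.0639). SETD2, the H3K36 methylating enzyme, was just outside the threshold at -0.28 ± 0.11 (adjusted p = 0.0594) although its groups did not overlap, with 6.05 to 6.41 in fetal and 5.82 to 6.03 in postnatal animals. It was called after centring (adjusted p = 0.00863), after quantile normalization (0.0146) and without the fetus of 30 days before birth. SETD4, SETD5, SETD6 and SETDB2 were not called, at -0.45 to 0.12 log2 units.

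**Figure D3:**
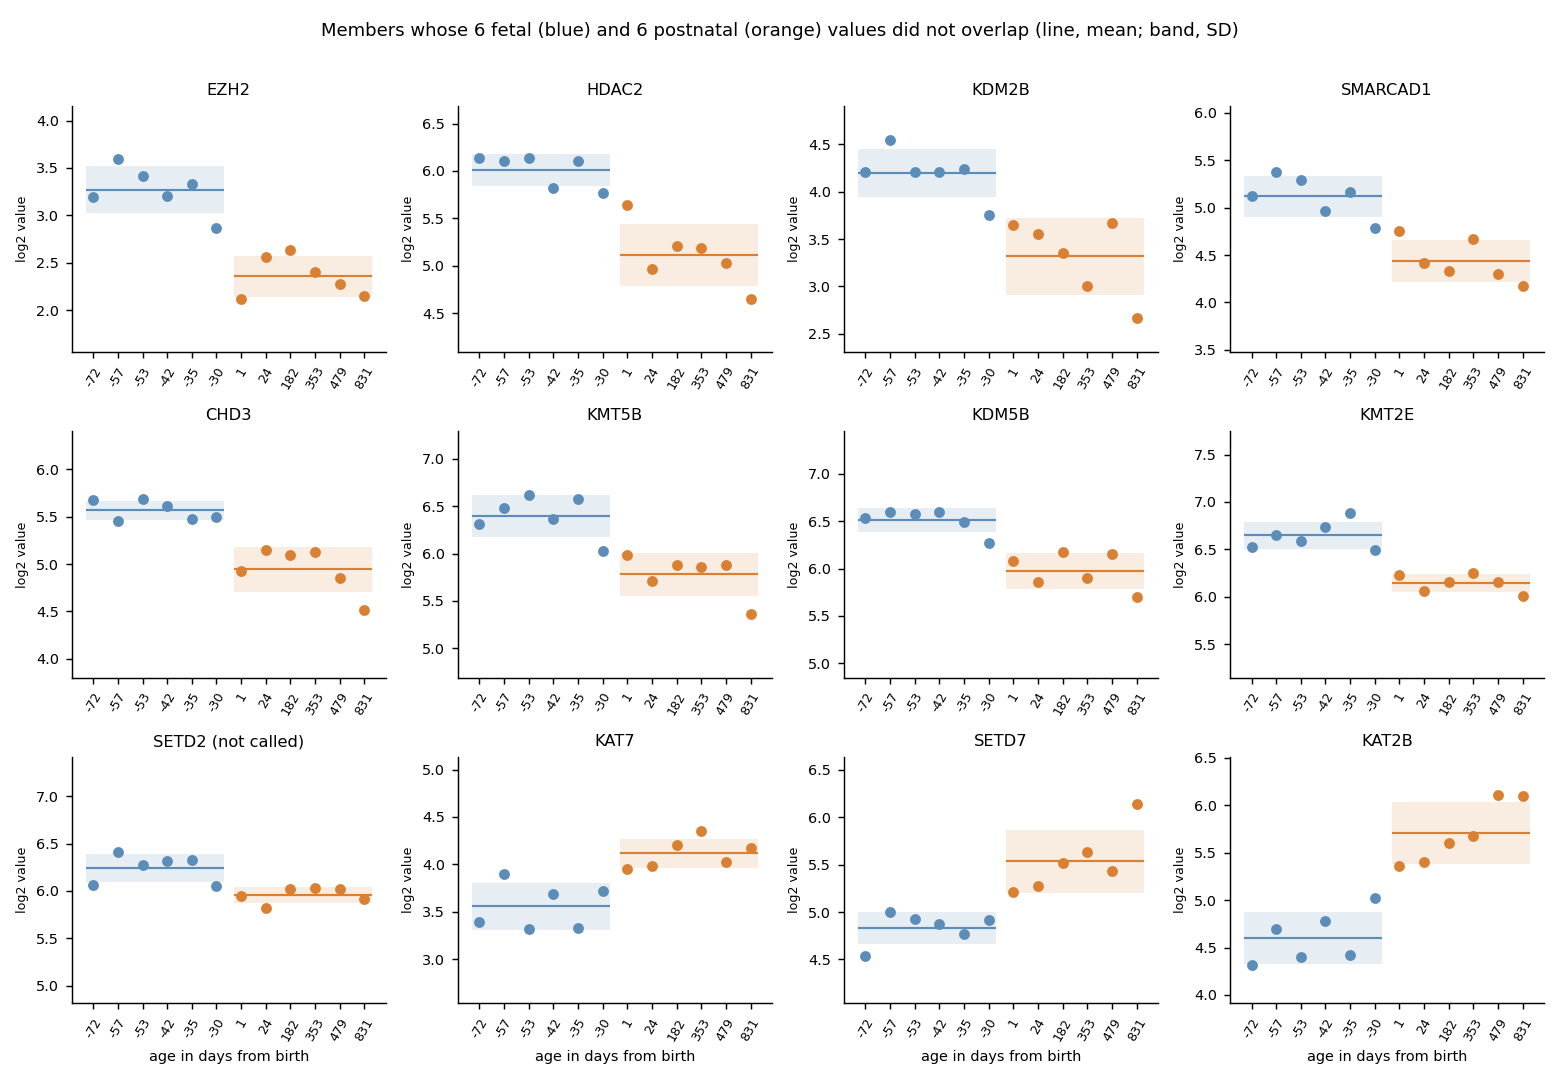
Log2 value of each animal in order of age in days from birth (evenly spaced, not to scale), one panel for each of the 12 genes whose 6 fetal (blue) and 6 postnatal (orange) values did not overlap, with the group mean (line) and SD (band). 9 genes were lower and 3 higher after birth, EZH2 from 2.87 or more to 2.63 or less and KAT2B from 5.02 or less to 5.36 or more, and SETD2 is the one of the 12 that the fit did not call.

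Of 9 measured core subunits of BAF and PBAF, the SWI/SNF complexes, 2 fell and none rose. SMARCC1, or BAF155, which prevails over its relative SMARCC2 (BAF170) in progenitors, was at 4.95 to 5.29 (median 5.16) in fetal and 4.51 to 5.09 (median 4.69) in postnatal animals, and it fell by 0.41 ± 0.13 (1.33-fold, adjusted p = 0.0205). SMARCC2 differed by 0.22 ± 0.11 (adjusted p = 0.122). The within-animal difference of SMARCC2 and SMARCC1 lay between -0.15 and 0.13 in fetal and between 0.23 and 1.02 in postnatal animals, relative to the fetal mean. It changed by 0.63 log2 units toward SMARCC2 (exact permutation p = 0.00216, adjusted p = 0.00722).

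ARID2, a subunit found in PBAF and not in BAF, fell by 0.41 ± 0.14 (1.33-fold, adjusted p = 0.0347). Its call was lost in 10 of the 12 fits that left out 1 animal, all but those without the fetus of 30 days before birth or the animal of 831 days (adjusted p up to 0.0828). The ARID2 call was also lost with juvenile postnatal animals only (limma adjusted p = 0.0960). The ATPases SMARCA2 and SMARCA4, of which each BAF complex holds one, differed by -0.07 ± 0.14 (adjusted p = 0.739) and -0.08 ± 0.13 (0.655), and their within-animal difference by 0.01 (exact permutation p = 0.926). ARID1A, ARID1B, SMARCD1 and SMARCD3 were not called, at -0.26 to 0.03. ARID4B, a subunit of Sin3 complexes, and ARID5B were not called either, at 0.06 and 0.19.

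The ISWI ATPases moved apart. SMARCA1, or SNF2L, which is enriched in neurons, fell by 0.37 ± 0.12 (1.29-fold, adjusted p = 0.0243), and SMARCA5, or SNF2H, rose by 0.33 ± 0.12 (1.26-fold, adjusted p = 0.0443). SMARCA1 lost its call without the fetus of 53 days before birth or the animal of 479 days (adjusted p up to 0.0575). SMARCA5 lost it in 9 of 12 such fits, all but those without the fetus of 57 days before birth or the animals of 1 or 831 days (up to 0.104), and after centring (0.0811). The within-animal difference of SMARCA1 and SMARCA5 changed by -0.70 without overlap (exact permutation p = 0.00216, adjusted p = 0.00722), and this call held in every setting tried. SMARCAD1, a remodeler that acts in heterochromatin upkeep and DNA repair, was at 4.79 to 5.38 (median 5.14) and 4.17 to 4.75 (median 4.37) with no overlap. It fell by 0.68 ± 0.14 (1.60-fold, adjusted p = 0.00154). SMARCAL1 was not called (0.05 ± 0.16, adjusted p = 0.849).

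Of 10 CHD remodelers, 2 fell and 1 rose. CHD3, an ATPase of the NuRD deacetylase complex, was at 5.46 to 5.68 (median 5.55) in fetal and 4.52 to 5.15 (median 5.01) in postnatal animals with no overlap, and it fell by 0.62 ± 0.13 (1.54-fold, adjusted p = 0.00159). The other NuRD ATPases of this family were not called, with CHD4 at 0.25 ± 0.11 (adjusted p = 0.0791) and the neuronal CHD5 at 0.45 ± 0.19 (0.0802). Both were called without the animal of 831 days (CHD4 0.0433, CHD5 0.00740). CHD1, which binds methylated H3K4, fell by 0.33 ± 0.12 (1.26-fold, adjusted p = 0.0413), and CHD6 rose by 0.30 ± 0.11 (1.23-fold, adjusted p = 0.0461). CHD1 lost its call in 10 of the 12 fits that left out 1 animal, all but those without the fetus of 35 days before birth or the animal of 1 day (up to 0.0878). CHD6 also lost it in 10, all but those without the fetus of 57 days before birth or the animal of 1 day (up to 0.101), and after centring (0.153) and quantile normalization (0.0782). CHD1L, CHD2, CHD7, CHD8 and CHD9 were not called, at -0.22 to 0.20. CHD7 and CHD8, both known for neurodevelopmental disorders, had adjusted p of 0.602 and 0.994.

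Across 20 measured pairs of related genes the within-animal difference was tested in the same way. Of these, 8 pairs were called, 6 of them without overlap between the groups. The pair list, too, was made with earlier results of these data known. No such share was computed for other gene pairs, while 33.2% of all single rows were called and 13.5% did not overlap. Each called pair holds a gene that was called on its own, so the pair calls partly restate those calls. Besides the pairs given above, the difference of HDAC11 and HDAC8 changed by 0.81 (exact permutation p = 0.00216, adjusted p = 0.00722). That of KAT2B and KAT2A changed by 0.70 (exact permutation p = 0.0173, adjusted p = 0.0433). The KAT2B/KAT2A call was lost in 8 of the 12 settings that left out 1 animal, all but those without the fetus of 30 or 42 days before birth or the animal of 24 or 182 days (adjusted p up to 0.0812). SS18L1 and SS18 are BAF subunits outside the 80 genes, of which SS18L1, or CREST, is known to replace SS18 as neurons form. Their difference changed by -0.78, away from SS18L1 (exact permutation p = 0.00216, adjusted p = 0.00722), and 7 of the 12 values of SS18L1 lay under the 20th percentile of the array. With the floor, SS18L1 by itself differed by -0.035 and SS18 by 0.42 between postnatal and fetal animals. The difference of ACTL6B and ACTL6A, another such BAF pair, changed by -0.32 (exact permutation p = 0.113) and that of DPF1 and DPF2 by -0.33 (exact permutation p = 0.0498, adjusted p = 0.111). Of the 12 values of ACTL6A, 11 lay under the 20th percentile of the array, so a change in that pair could be missed. With the floor 9 pairs were called, and the pair of EZH1 and EZH2 was not among them. All the pairs share the same 12 animals, and some share a gene.

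**Figure D4:**
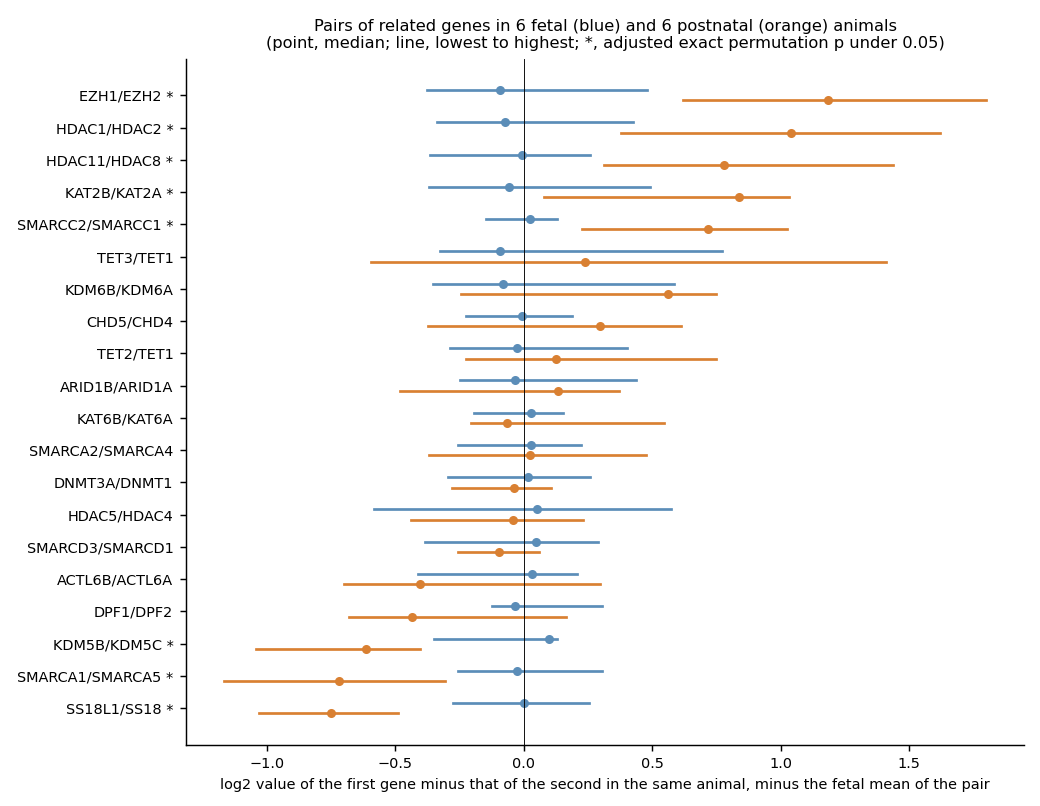
Within-animal difference of the log2 values of each pair of related genes, minus the fetal mean of that pair, in 6 fetal (blue) and 6 postnatal (orange) animals (point, median, and line, lowest to highest). The 8 starred pairs were called, from EZH1 and EZH2 at the top (changed by 1.17) to SS18L1 and SS18 at the bottom (-0.78).

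Change with age inside each group could not be resolved for these genes. No chromatin gene had a called slope over the 6 fetal ages, where 0% of all rows were called, although 2 of the 80 and 538 of all rows had an unadjusted limma p under 0.05. The fetal slopes with the smallest p were those of KDM7A (0.29 ± 0.10 log2 units per 10 days, adjusted p = 0.829), KDM3A (0.16 ± 0.08, 0.904), SMARCD3 (-0.14 ± 0.07, 0.884) and KDM1B (-0.19 ± 0.09, 0.898). Over the postnatal ages no chromatin gene and 0.0623% of all rows had a called slope per doubling of age, and 6 of the 80 and 821 rows had an unadjusted p under 0.05. KAT2B (0.07 ± 0.03, adjusted p = 0.477) and SETD7 (0.07 ± 0.03, 0.527) had the smallest p among positive slopes and HDAC2 (-0.07 ± 0.03, 0.477) and DNMT3A (-0.07 ± 0.03, 0.536) among negative ones.

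The postnatal animals were also taken as 2 newborn (1 and 24 days) and 4 juvenile animals (182 days or older). Between newborn and fetal animals EZH2 was lower (-0.93 ± 0.21, limma adjusted p = 0.0168) and KAT2B higher (0.78 ± 0.21, adjusted p = 0.0401), where 2.24% and 4.92% of all rows were called lower and higher, 7.17% in all. The means of EZH2 were 3.27 in fetal, 2.34 in newborn and 2.36 in juvenile animals, and those of KAT2B 4.60, 5.38 and 5.87. HDAC2 (-0.71 ± 0.21, adjusted p = 0.0550) and KDM1B (-0.94 ± 0.29, 0.0655) were just outside the threshold. With only 2 newborn animals these counts were unstable: without the animal of 24 days no chromatin gene was called, without the animal of 1 day 2 were called lower (TET2 and HDAC2) and none higher, without the animal of 831 days 1 was higher and 2 lower, and without the fetus of 30 days before birth 2 were higher and 6 lower. The calls over all rows moved as well. Without the animal of 24 days 0.0208% of all rows were called higher and 0% lower, and without the animal of 1 day 6.28% and 1.87%. Without the animal of 831 days the shares were 5.47% and 2.68%, and without the fetus of 30 days before birth 6.61% and 4.40%. Leaving out the fetus of 35, 53 or 72 days before birth or the animal of 353 days removed the KAT2B call. With the floor EZH2 was not among the genes called at this step.

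Between juvenile and newborn animals no chromatin gene was called, against 0.0415% of all rows, and 3 of the 80 and 674 rows had an unadjusted limma p under 0.05. SMARCC1 (-0.42 ± 0.16, adjusted p = 0.595) and TET3 (-0.52 ± 0.25, 0.721) had the smallest p among negative differences and EZH1 (0.50 ± 0.23, 0.693) and KAT2B (0.49 ± 0.23, 0.707) among positive ones. The means of SMARCC1 were 5.03 in newborn and 4.61 in juvenile animals. The stage comparisons share animals with each other and with the main comparison, so they are not independent of it.

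The lowest and highest animals of each group were counted over the called genes. Among the 19 genes that were lower after birth, the fetus of 30 days before birth had the lowest fetal value in 15, as it did in 66.5% of the 1270 rows called lower. The animal of 1 day had the highest postnatal value in 10 of the 19 (40.9% of those rows), and the animal of 831 days the lowest in 11 (47.6%). Among the 10 genes that were higher, the animal of 1 day was lowest of the postnatal group in 6 (51.9% of the 1927 rows called higher) and the fetus of 57 days before birth highest of the fetal group in 7 (39.8%). The fetus of 30 days before birth was highest of the fetal group in 2 of the 10 (33.9%). The array of the fetus of 57 days had the highest median of the fetal arrays, at 4.32. That of the animal of 831 days had the lowest of the postnatal arrays, at 4.02. The array of the fetus of 30 days before birth had a median of 4.01, near the lowest fetal median, 3.98 at 72 days. The part of array level in these counts was not tested. Without the animals of 30 days before birth and 1 day, 10 chromatin genes were called higher and 22 lower, and 28 of the 29 calls were kept. Over all rows 20.8% were called higher and 15.1% lower in that setting, against 20% and 13.2% with all 12 animals.

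Genes of the same complexes that fall outside the 80 were read from 7 lists. Of 90 measured, 15 were higher and 9 lower, with a median difference of -0.0018 log2 units, against 20% and 13.2% of all rows and a median of 0.07. Of 13 other BAF and PBAF subunits, 2 rose and 3 fell. PBRM1, the bromodomain subunit that defines PBAF with ARID2, fell by 1.04 ± 0.13 (2.06-fold, adjusted p = 4.53e-05) with no overlap, from 6.69 ± 0.17 to 5.65 ± 0.21 (mean ± SD, n = 6). BCL7B, a small BAF subunit, rose by 1.14 ± 0.17 (2.21-fold) and SS18 by 0.42 ± 0.13. BCL7A and SS18L1 fell by 0.41 and 0.36, and each lost its call in 9 of the 12 fits that left out 1 animal (adjusted p up to 0.0942 and 0.109). SS18L1 was at -0.035 with the floor.

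Of 17 Polycomb genes outside the core of complex 2, 5 rose and 3 fell. CBX6, a chromobox subunit of Polycomb repressive complex 1, rose by 1.51 ± 0.21 (2.85-fold, adjusted p = 9.59e-05) with no overlap, from 4.91 ± 0.51 to 6.42 ± 0.27 (mean ± SD, n = 6). PCGF5, which defines a variant of that complex, rose by 0.80 ± 0.17, and PCGF1, the partner of KDM2B, by 0.74 ± 0.19. ASXL3, a partner of the H2A deubiquitinase BAP1, fell by 1.33 ± 0.22 (2.52-fold), its relative ASXL1 by 0.68 ± 0.16 and PCGF2 by 0.67 ± 0.12. PHF19 and ASXL2 were the other rises, and PHF19 lost its call with the floor (0.20, adjusted p = 0.293).

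The remaining lists held 1 to 5 calls each. Of 14 subunits of NuRD, Sin3 and CoREST, 2 rose and none fell, namely MBD2 (0.39 ± 0.12), which lost its call without the fetus of 72 days before birth (adjusted p = 0.0559), and GATAD2A (0.50 ± 0.17), whose 12 values all lay under the 20th percentile of the array. GATAD2A lost its call with the floor (0.465) and in 5 of the 12 fits that left out 1 animal (up to 0.0756). Of 18 histone methyltransferases and cofactors, 3 rose (SMYD3, ASH2L and PRDM2, by 0.55, 0.50 and 0.34) and 2 fell (NSD2 and NSD1, by 0.37 and 0.34). PRDM2 and NSD2 each lost their call in 7 of the 12 fits that left out 1 animal (up to 0.0840 and 0.0986), and PRDM2 also after centring (0.0964). Of 9 acetyltransferases and bromodomain readers, BRPF1, a scaffold of KAT6A and KAT6B, rose by 0.57 and NCOA1 fell by 0.47. GADD45A, which acts in DNA repair and demethylation, rose by 0.94 ± 0.20 among 7 genes of DNA methylation reading, with 11 of its 12 values under the 20th percentile and no call with the floor (0.16). NAP1L2, a neuronal histone chaperone, rose by 0.82 ± 0.17 (1.77-fold) among 12 genes of INO80, SWR and histone chaperones, with no overlap.

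**Figure D5:**
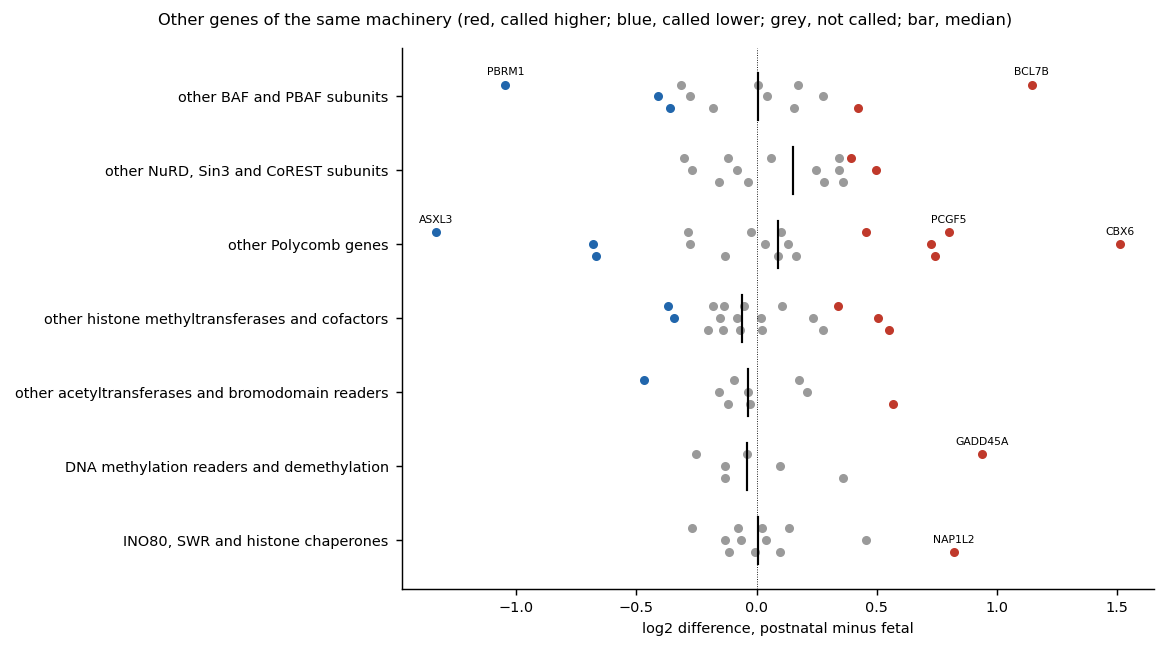
Log2 difference between postnatal and fetal animals for 90 genes of the same machinery outside the 80, in 7 lists (red, called higher; blue, called lower; grey, not called; vertical bar, list median). The widest spread is in the Polycomb list, from ASXL3 at -1.33 to CBX6 at 1.51.

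In all, 51 of the 80 chromatin genes did not pass the test between the groups, with 26 differences below 0 and 25 above, from -0.45 to 0.45 log2 units and a median standard error of 0.13. Of these 16 lay within 0.1 log2 units of 0. The 80 rows covered the range of signal, with means from the 6.69th to the 91.9th percentile of all rows and a median at the 61.2nd, and 10 lay under the 25th percentile.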

How the data were processed

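Post-mortem cortex RNA of 12 male rhesus macaques was hybridised to 1 array each. The authors deposited a table of 9630 rows by 12 arrays, read here as log2 values because they run from -0.86 to 10.6 and no source gives the base. Their background correction, probe summary, array normalization and choice of rows were not given in the sources used here. Per the submitters' processing notes the genome build is hg 18, and no coordinates are printed.

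Rows were named from the platform annotation: 8848 rows had 1 symbol, 229 several and 553 none, and only rows with 1 symbol were used for members. The 80 genes and all lists were chosen with earlier results of these data known. Groups came from the ages in the labels. Replicate numbers follow accession order and pair no animals. Each array is 1 animal.

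All 9630 rows were fitted with limma 3.58.1 (lmFit and eBayes) in R 4.3.3 on the deposited values, with Benjamini-Hochberg adjustment over all rows and a threshold of 0.05. Slopes used days before birth in the fetal group and log2 age in the postnatal group, and stages compared newborn (1 and 24 days) and juvenile animals (182 days or older). Pairs of related genes were tested with a two-sided exact permutation of animals, adjusted over the 20 pairs measured. Standard errors are limma's moderated ones. The scripts were tested on simulated data.

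Every called member is named, non-overlapping ones with their range, and so are members just outside the threshold, the 2 with the smallest p in each direction of a trend with no call, and up to 3 called genes in each direction of a related list with the largest difference. Some further genes were named after seeing their values. The counts and slopes of the 80 genes were repeated after centring each array on its median, after quantile normalization, with values under an array's 20th percentile raised to it (the floor), without the dimmest 25% of rows, with array weights, with the trend and robust options of eBayes, with a gene's rows averaged, without each animal in turn and without the pair nearest to birth. Juvenile animals only were tried for the comparison of postnatal with fetal animals, and linear age for the postnatal slope. The gene pairs were repeated with both scalings, the floor, averaged rows and without animals, and the related and marker lists with both scalings, the floor, without animals and with juvenile animals only. A planned description of promoter and protein sequences was not made, because no sequence table was used here.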

Additional observations from a re-analysis of the deposited data

Results flagged for a closer look

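Of 160 groups checked (80 genes in 2 groups of 6), 12 held a value whose gap to its nearest neighbour exceeded the critical share of the group's range in Dixon's test. Chance flags about 1 in 20 groups, or about 8 of 160. All values are log2.

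The fetus of 30 days before birth stood below the other fetal animals in 4 genes that were lower after birth. It was at 4.04 for ARID2 (nearest other 4.58), 5.61 for KAT6B (5.98), 6.26 for KDM5B (6.49) and 6.19 for SMARCA1 (6.43). Without that fetus all 4 genes were still called lower.

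The animal of 831 days stood below the other postnatal animals for CHD8 at 3.97 (nearest other 4.48) and SMARCA2 at 5.71 (6.15). The animal of 24 days stood above them for HDAC1 at 4.43 (4.01) and HDAC3 at 5.0 (4.77). The fetus of 57 days before birth stood above the other fetal animals for KDM6B at 3.14 (2.46) and SETD3 at 5.68 (5.45), the fetus of 72 days for KDM5C at 6.01 (5.62), and the fetus of 53 days stood below them for DNMT1 at 3.46 (3.75).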

How the results depend on the processing

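Of the 29 genes called between postnatal and fetal animals, 19 kept direction and call in all 21 alternatives and 20 in every fit that left out 1 animal. Leaving out 1 animal gave 21 to 28 calls in all and 5 to 10 higher, with 5 higher without the animal of 479 days and 6 without the fetus of 72 or 53 days before birth or the animal of 24 or 182 days. Over all 9630 rows the same fits gave 2644 to 3390 calls and 1597 to 2208 higher, against 3197 and 1927 with all 12 animals. No slope and no juvenile against newborn difference was called for the 80 genes in any alternative.

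Newborn against fetal calls depended most on the setting, and the cause was not tested. The total of 2 became 10 after quantile normalization, 9 after centring and 6 with eBayes trend and robust, and 0 to 8 when 1 animal was left out. The calls over all 9630 rows moved too, from 690 to 1170, 1090 and 984 in the same order, and to 2 to 1061 when 1 animal was left out. Of all rows 4.92% were called higher on the deposited values, and 6.27%, 5.43% and 6.74% in that order. Lower calls covered 2.24% of all rows on the deposited values, and 5.88%, 5.89% and 3.48%. Higher calls (1) became 0 after centring and 0 without the animals of 30 days before birth and 1 day, and 0 to 2 when 1 animal was left out. Lower calls (1) became 9 after quantile normalization, 9 after centring, 5 with eBayes trend and robust, and 2 each with the dimmest 25% of rows removed, with the floor and without those animals near birth, and 0 to 6 when 1 animal was left out. The uncalled pair difference of SMARCA2 and SMARCA4 (0.015) turned to -0.032 without both animals near birth and lay between -0.077 and its highest value of 0.092 when 1 animal was left out.

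No paired analysis was possible because the labels pair no animals. The number of arrays and low signal limit the rest: EZH2 after birth, KDM6B and GADD45A lay largely under the 20th percentile of the array.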

Other observations

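The second rows of the genes with 2 rows gave the same direction as the rows used. The other TET2 row fell by 0.65 ± 0.14 (limma adjusted p = 0.00197) with no overlap between the groups, from a mean of 5.31 in fetal to 4.66 in postnatal animals. The other KMT2A row differed by -0.31 ± 0.13 (adjusted p = 0.0922), against -0.24 ± 0.11 for the row used, and neither was called.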
